A study of Mus musculus with 8 samples.

Results

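The nucleic-acid sensing and interferon-beta axis was followed in cells of the mouse left ventricle through 10 genes, all of which were found by symbol among the 27998 genes listed in both matrices. They were the ligand Ifnb1 (interferon-beta), the RNA sensors Ifih1 (MDA5), Ddx58 (RIG-I) and Tlr3, the DNA sensor Mb21d1 (cGAS), the adaptors Mavs and Tmem173 (STING), the transcription factor Irf3, and the receptor chains Ifnar1 and Ifnar2. Cells came from male wild-type C57BL/6 mice of 10 to 12 weeks that had undergone a sham operation or 30 min of occlusion of the left anterior descending artery followed by reperfusion (IR), with tissue taken 6 h after surgery. Each condition comprised 4 samples, each a pool of 3 hearts, and the samples of a condition were merged in 1 matrix without a label that assigned a cell to its sample. Each condition was therefore 1 library without replicates, and no test between sham and IR was possible. The labels record the sham library as 0 h and the IR library as 6 h, and reading 0 h as sham rests on the description of the operations in the study. The 2 time labels, the operations and the 2 libraries cannot be told apart.

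Double-stranded viral or cellular RNA in the cytosol is bound by MDA5 and RIG-I, which signal through MAVS on mitochondria, while TLR3 reads double-stranded RNA in endosomes and cGAS reads cytosolic DNA and signals through STING. These routes lead to phosphorylation of IRF3, which together with NF-kappaB and AP-1 factors switches on the Ifnb1 promoter. Secreted interferon-beta binds the IFNAR1/IFNAR2 receptor and, through JAK kinases, induces interferon-stimulated genes, among them the genes for MDA5 and RIG-I themselves. In the injured heart, macrophages that have taken up dying cells are a known source of type I interferon.

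The promoter windows of Ifnb1, Ifih1 and Ddx58 are shown because Ifnb1 is the ligand of the axis and the other two genes encode sensors that are themselves interferon targets. The windows come from RefSeq on GRCm38.p6, run 5′ to 3′ on the gene's own strand from 250 bases before to 50 bases after the transcript start, and capitals mark matches to the cores searched for, AANNGAAA for interferon regulatory factors, GGAANTTCC for NF-kappaB and TGANTCA for AP-1, on both strands.
Ifnb1, chr4:88522745-88523044, minus strand: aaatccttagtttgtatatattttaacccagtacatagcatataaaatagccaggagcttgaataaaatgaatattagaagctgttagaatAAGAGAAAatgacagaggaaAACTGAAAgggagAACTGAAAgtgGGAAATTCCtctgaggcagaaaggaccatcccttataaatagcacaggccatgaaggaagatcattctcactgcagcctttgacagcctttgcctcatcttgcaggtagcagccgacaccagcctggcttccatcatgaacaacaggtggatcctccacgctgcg
Ifih1, chr2:62646206-62646505, minus strand: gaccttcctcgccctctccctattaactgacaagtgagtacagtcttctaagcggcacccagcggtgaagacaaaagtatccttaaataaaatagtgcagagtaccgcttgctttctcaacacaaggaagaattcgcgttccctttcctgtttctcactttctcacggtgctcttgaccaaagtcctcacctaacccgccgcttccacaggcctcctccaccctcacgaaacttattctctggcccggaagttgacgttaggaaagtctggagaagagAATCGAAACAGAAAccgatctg
Ddx58, chr4:40239776-40240075, minus strand: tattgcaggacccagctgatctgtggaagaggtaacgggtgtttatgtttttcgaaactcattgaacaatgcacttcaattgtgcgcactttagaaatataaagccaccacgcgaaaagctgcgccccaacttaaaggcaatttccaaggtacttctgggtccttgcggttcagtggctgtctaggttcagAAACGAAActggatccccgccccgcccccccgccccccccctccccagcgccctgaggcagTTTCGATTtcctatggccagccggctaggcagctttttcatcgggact
The Ifnb1 window held 3 matches to the interferon regulatory factor core, which began at -159, -139 and -126 from the start site, and 1 NF-kappaB core at -115, which matched on both strands. The Ifih1 window held 2 overlapping interferon regulatory factor cores downstream of the start, at 29 and 35, and the Ddx58 window held 1 at -59 and 1 on the other strand at 3. No AP-1 core was found in any member's window. Of 32851 mouse windows, 23.9% held the interferon regulatory factor core, 0.928% the NF-kappaB core and 7.81% the AP-1 core, so the first is a common string in windows of this length. Of the 9 members with a window, Tlr3 had 1 interferon regulatory factor core and the remaining 5 had no match. In the GENCODE vM21 annotation of GRCm38, Ifnb1 spans chr4:88522025-88522774, Ifih1 chr2:62595798-62646255 and Ddx58 chr4:40203773-40239828, all on the minus strand, and Ifnar1 (chr16:91485238-91507441) and Ifnar2 (chr16:91372783-91405589) lie close to each other on the plus strand.

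The sham matrix held 11620 barcodes with 58653308 UMIs and the IR matrix 8539 barcodes with 75033226 UMIs, where a UMI is a unique molecular identifier that counts 1 captured RNA molecule at its 3′ end. After the filter that the study states (200 to 2500 genes, at most 30% mitochondrial UMIs) 9777 sham and 4880 IR cells were left, with medians of 4255 and 3951 UMIs. The limit of 2500 genes removed 39.6% of IR barcodes but 13.8% of sham barcodes, including 65.7% of macrophage/monocyte-like and 87.8% of fibroblast-like cells of the IR library. Values without that limit are therefore given beside members' ratios of IR to sham that crossed 2-fold or whose interval came to include or exclude 0. Further ratios changed sign with intervals that included 0 both times, such as Ifnar2 in endothelial-like cells, from 0.46 to -0.21 on the log2 scale. The study states more cells after its quality control than this filter left in either library, but fewer than the barcodes in the matrices. The limit of 2500 genes alone removed 1600 sham and 3385 IR barcodes, too many for the study's cell counts. The filter as stated therefore did not give those counts from these matrices, and the cells kept here are not the study's set. The matrices shared 30 barcodes, of which 14 passed the filter in both. Cells were assigned to classes by the UMIs of marker genes, none of them a member, and 8 classes had at least 50 cells in each library. In every one of them, all markers of the list present in the matrices were found in over 10% of the cells of both libraries, and no marker of another class was among the 10 leading genes. Sham held 3347 macrophage/monocyte-like cells, 301 neutrophil-like, 1163 B cell-like, 340 T cell-like, 211 NK cell-like, 2962 fibroblast-like, 223 endothelial-like and 796 mural-like cells, and IR held 743, 2424, 711, 234, 60, 201, 55 and 124 cells, respectively. Levels are given as CPM, the summed UMIs of a gene per 1000000 UMIs of all genes in the class, with 95% intervals that cover counting error only. Transcripts of neutrophils were found outside that class, at a summed 567 to 1050 CPM in the other 7 IR classes and 36.8 to 92.0 CPM in those of sham, and the part of such free RNA in the members' levels was not tested.

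**Figure D1:**
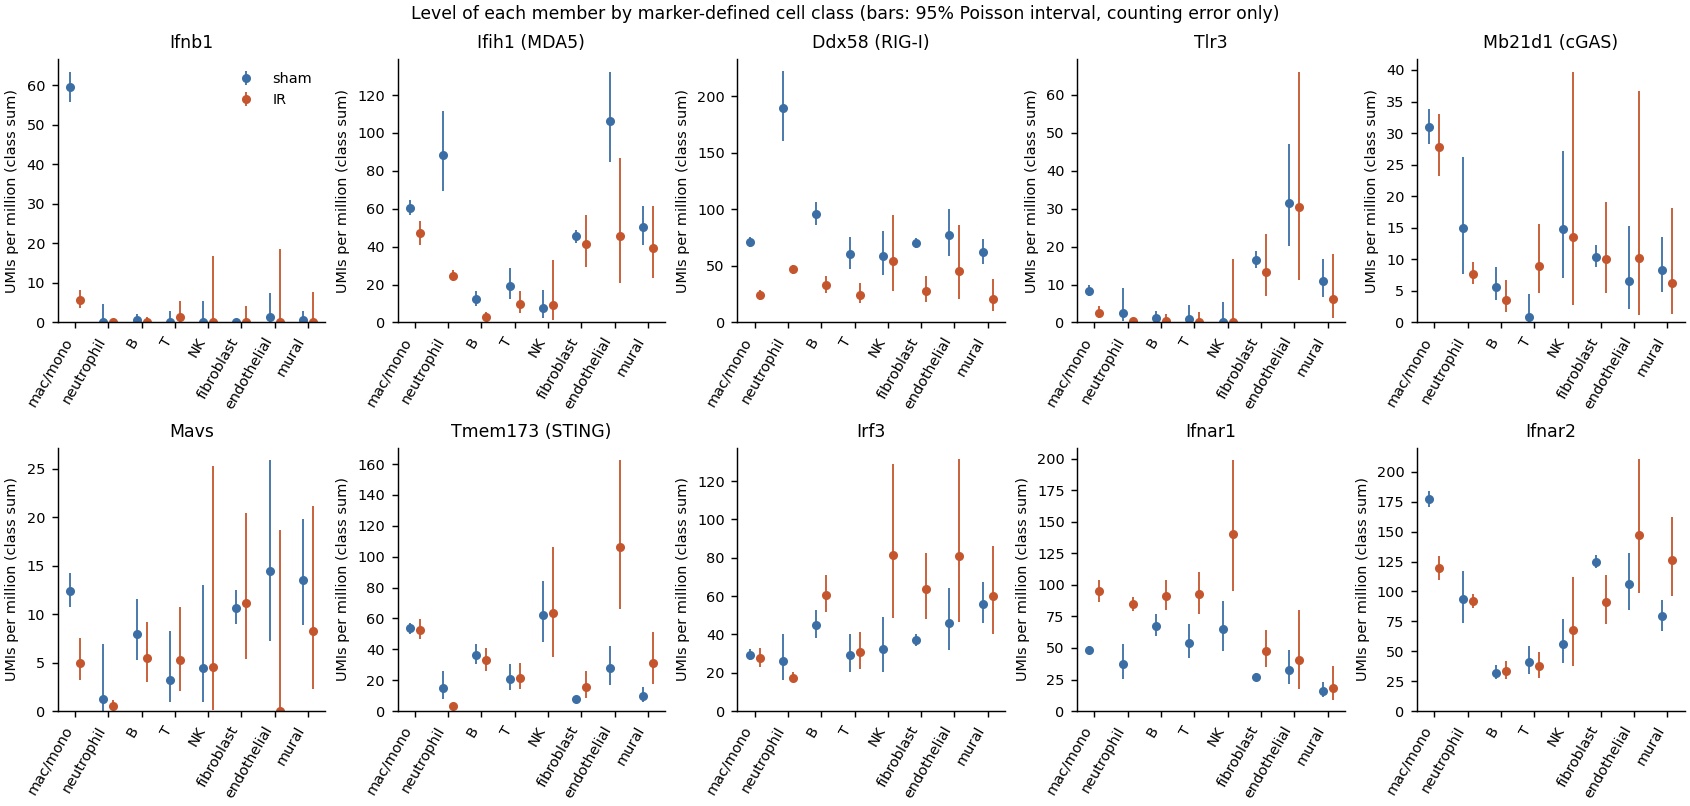
Level of each of the 10 members in CPM (y axis) in 8 marker-defined cell classes (x axis), sham in blue and IR in orange, with 95% Poisson intervals. Ifnb1 stands out in sham macrophage/monocyte-like cells at 59.5 CPM, Tlr3 is highest in endothelial-like cells, and Ifnar1 is higher in the IR library in every class by its point estimate.

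Ifnb1 was found almost entirely in macrophage/monocyte-like cells of the sham library and was lower in the same class after IR. In sham, 957 of 968 Ifnb1 UMIs (98.9%) lay in this class, which held 39.6% of all UMIs. The class had 59.5 CPM (957 UMIs) in sham and 5.65 CPM (26 UMIs) in IR, a log2 ratio of IR to sham of -3.40 (95% interval -4.02 to -2.84), or 10.5-fold higher in sham. In the other 7 sham classes the gene had 0 to 3 UMIs each, and in IR it had 2 UMIs in neutrophil-like cells, 2 in T cell-like cells and 0 in the other 5 classes. The next class in the sham order, endothelial-like cells, rested on 1 UMI (1.32 CPM), and no 2 neighbours further down the order differed beyond counting error. In IR, 26 of 30 Ifnb1 UMIs (86.7%) lay in macrophage/monocyte-like cells, at 5.65 CPM (3.69 to 8.28). This level did not differ beyond counting error from the 1.49 CPM of T cell-like cells, which rested on 2 UMIs in 1 of 234 cells. It lay above the intervals of neutrophil-like (up to 0.709 CPM) and B cell-like cells (0 UMIs, up to 1.445 CPM).

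Few cells carried the ligand, and those that did often carried many copies. In sham, 166 of 3347 macrophage/monocyte-like cells (4.96%, 4.25 to 5.75) had an Ifnb1 UMI, 53 of them with a single one, and the highest cell had 47. The 32 cells with at least 10 UMIs, 0.956% of the class, held 62.6% of its Ifnb1 UMIs. In IR, 18 of 743 cells (2.42%, 1.44 to 3.80) had a UMI, with at most 4 in a cell. No other member was as concentrated in sham, since cells with at least 5 UMIs held 77.6% of Ifnb1 UMIs and at most 4.01% of those of any other member. In IR the most concentrated member was Ifih1, with 28.2% of its UMIs in such cells and 11 in the highest.

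With each cell thinned to 1000 UMIs, 2.62% (2.1 to 3.22) of 3284 sham and 0.557% (0.152 to 1.42) of 718 IR macrophage/monocyte-like cells kept an Ifnb1 UMI, after 63 and 25 shallower cells were left out. The same share was 0 of 1149 sham B cell-like cells, with an interval up to 0.32%, and 0 of 2918 fibroblast-like cells, with an interval up to 0.126%. B cell-like cells served as a class in which the ligand is not anticipated, and before thinning 2 of 1163 (0.172%) had a UMI, at a median of 2205 UMIs per cell against 4690 in macrophage/monocyte-like cells. The share in sham macrophage/monocyte-like cells was thus above this background at matched depth.

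**Figure D2:**
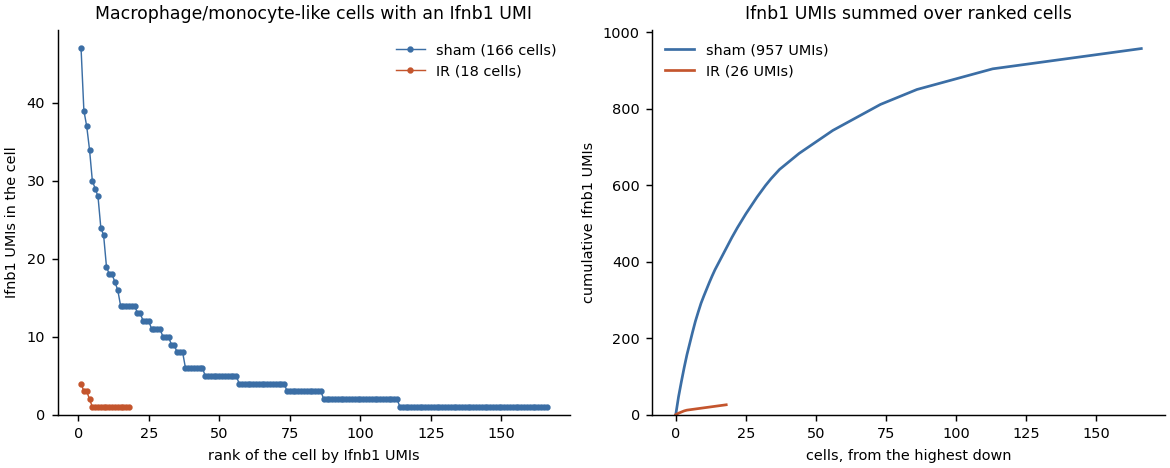
Ifnb1 UMIs in each macrophage/monocyte-like cell with at least 1 UMI, ranked from the highest (left), and their running sum (right), sham in blue and IR in orange. The 166 sham cells run from 47 UMIs down to 1 and sum to 957, and the 18 IR cells do not exceed 4 and sum to 26.

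The macrophage/monocyte-like cells were split by lists of markers of resident (Mertk, Lyve1, Folr2 and others) and monocyte-derived (Ccr2, Ly6c2, Plac8 and others) macrophages. In sham this gave 2524 resident, 374 monocyte-derived and 449 cells in which neither list led, and in IR 341, 328 and 74 cells. Sham Ifnb1 was 41.2 CPM in resident and 40.5 CPM in monocyte-derived cells, which did not differ beyond counting error (log2 ratio -0.03, -0.38 to 0.31), and 193 CPM in cells with neither list in the lead. Those last cells held 376 of its 957 Ifnb1 UMIs, and 46 of the 449 (10.2%) had a UMI. In sham, 15 resident, 2 monocyte-derived and 15 remaining cells with at least 10 UMIs held 52.5%, 53.7% and 77.9% of their set's Ifnb1 UMIs. The intervals treat each UMI as independent, so for every member they leave out the spread between cells. For Ifnb1, here and in the whole class, they are too narrow. The same holds for Ifih1 in IR macrophage/monocyte-like cells, where cells with at least 5 UMIs held 28.2% of its UMIs. In IR the Ifnb1 level was 8.24 CPM in resident, 2.76 CPM in monocyte-derived and 8.19 CPM in the remaining cells, on 17, 6 and 3 UMIs. The lower level in IR was thus seen in each of the 3 sets, with log2 ratios of -2.32 (-3.11 to -1.63), -3.87 (-5.36 to -2.69) and -4.56 (-6.85 to -3.01). When the limit of 2500 genes was dropped, the IR levels were 5.41, 4.46 and 13.6 CPM on 47, 66 and 15 UMIs, with log2 ratios of -2.73, -2.78 and -3.54, and resident and monocyte-derived cells of IR then did not differ beyond counting error (-0.28, -0.84 to 0.29).

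The sham cells with an Ifnb1 UMI were compared with the other macrophage/monocyte-like cells of the same library, as a description. They were slightly deeper, with a median of 5248 against 4672 UMIs. By the marker lists, 106 of the 166 cells were resident, 14 monocyte-derived and 46 in neither set. The remaining 9 members were at similar levels in both sets, with log2 ratios from -0.34 (Tlr3) to 0.32 (Mb21d1) whose intervals all included 0. The chemokine gene Cxcl10 was 1771 CPM in cells with and 401 CPM in cells without an Ifnb1 UMI, a log2 ratio of 2.14 (2.06 to 2.22), and Ifit2 was 320 against 102 CPM (1.65, 1.46 to 1.83). Of the 10 interferon-stimulated genes followed, 7 had intervals above 0 and 3 (Mx1, Usp18 and Ifi47) had intervals that included 0. Genes of MHC class II (Cd74, H2-Aa, H2-Ab1 and H2-Eb1) were higher, by 0.50 to 0.63 on the log2 scale. Of the 8 monocyte-derived markers, Ly6c2, Plac8, Chil3 and Thbs1 had intervals below 0, with Ly6c2 and Plac8 at 10.1 and 24.6 CPM in cells with Ifnb1 and 730 and 862 CPM in those without. The interval of Ccr2 included 0 (114 against 95.8 CPM), and Vcan, F10 and Arg1 had no UMI in the cells with Ifnb1. Of the 8 resident markers, 7 had intervals below 0, from -0.48 (Mrc1) to -2.92 (Lyve1) on the log2 scale, and that of Mertk included 0 (24.6 against 29.3 CPM). Apart from Ifnb1, the genes with the highest ratio among those with at least 100 UMIs, a rule set after the data had been seen, were Slpi, a secreted protease inhibitor (726 against 78.4 CPM), Cxcl10, the chemokine Ccl4 (9827 against 2497 CPM), Ch25h, which makes 25-hydroxycholesterol (141 against 38.9 CPM), and Ifit2.

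In the 18 IR cells with an Ifnb1 UMI, 9 of the 10 interferon-stimulated genes had intervals above 0 against the other cells, and that of Ifi47 included 0 on 5 UMIs. For each of the 10 genes, its 2 highest cells held 68.2% (Isg15) to 100% (Ifit2 and Ifi47) of its UMIs in the 18 cells. Cxcl10 was found in 14 of the 18 cells, Isg15 in 11 and the others in 2 to 5, so the intervals rest on few cells. Rsad2 (viperin) was 1388 CPM against 62.9 CPM in the other 725 cells and Ifit1 was 397 against 16.9 CPM, and 2 cells held 195 of the 210 Rsad2 UMIs and 54 of the 60 Ifit1 UMIs. Ifih1 was 139 CPM against 43.8 CPM in the same cells (21 UMIs, log2 ratio 1.66, 0.94 to 2.32), of which 2 cells held 57.1%.

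**Figure D3:**
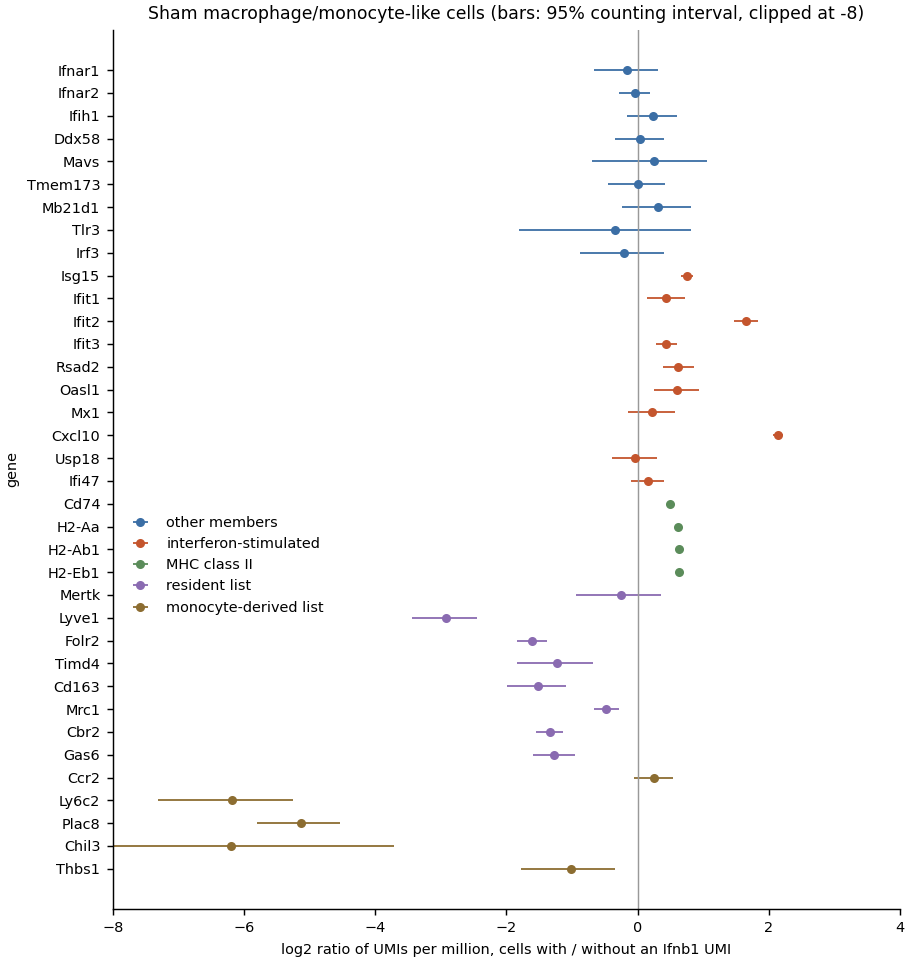
Log2 ratio of CPM between sham macrophage/monocyte-like cells with and without an Ifnb1 UMI (x axis) for the other members and 4 gene lists (y axis), with 95% counting intervals. Cxcl10 (2.14) and Ifit2 (1.65) lie to the right, Ly6c2 (-6.18) and Plac8 (-5.13) far to the left, and the 9 other members lie around 0.

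Among the RNA sensors, Ddx58 was lower in the IR library in every class by its point estimate, except in NK cell-like cells when the limit of 2500 genes was dropped. RIG-I, its product, binds short double-stranded RNA with a 5′ triphosphate. In sham the highest level was 190 CPM in neutrophil-like cells (152 UMIs), above the 95.9 CPM of B cell-like cells beyond counting error, and the other 6 classes lay between 59.1 CPM (NK cell-like) and 77.6 CPM (endothelial-like) with no difference between neighbours beyond counting error. In IR the levels ran from 20.7 CPM (mural-like) to 54.4 CPM (NK cell-like), again without a difference between neighbours. Classes further apart in that order did differ. Neutrophil-like cells had 46.8 CPM (42.7 to 51.2) and macrophage/monocyte-like cells 23.9 CPM (19.65 to 28.8). The log2 ratio was -2.02 (-2.28 to -1.75) in neutrophil-like, -1.57 (-1.87 to -1.29) in macrophage/monocyte-like, -1.54 (-1.91 to -1.20) in B cell-like, -1.30 (-1.93 to -0.69) in T cell-like, -1.33 (-1.97 to -0.76) in fibroblast-like and -1.58 (-2.68 to -0.65) in mural-like cells. In NK cell-like (-0.12) and endothelial-like cells (-0.77) the interval included 0, and without the limit of 2500 genes these values were 0.25 (-0.73 to 1.14) and -0.84 (-1.37 to -0.34), so that endothelial-like cells were lower beyond counting error. In macrophage/monocyte-like cells the value was -1.90 without that limit.

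Ifih1 encodes MDA5, which binds long double-stranded RNA. In sham it was highest in endothelial-like (106 CPM, 81 UMIs) and neutrophil-like cells (88.6 CPM, 71 UMIs), which did not differ from each other beyond counting error. Macrophage/monocyte-like (60.4 CPM), mural-like (50.5 CPM) and fibroblast-like cells (45.4 CPM) followed, and T cell-like (19.4 CPM), B cell-like (12.2 CPM) and NK cell-like cells (7.39 CPM) were lowest. The step from fibroblast-like to T cell-like cells exceeded counting error (log2 ratio 1.23, 0.64 to 1.88). In IR the order ran from macrophage/monocyte-like (46.9 CPM) over endothelial-like (45.6 CPM), fibroblast-like (41.2 CPM), mural-like (39.3 CPM) and neutrophil-like (24.5 CPM) to T cell-like (9.70 CPM), NK cell-like (9.07 CPM, 2 UMIs) and B cell-like cells (2.74 CPM, 7 UMIs). Endothelial-like, mural-like, fibroblast-like and macrophage/monocyte-like cells thus lay above the 3 lymphocyte classes in both libraries by their point estimates, but the IR level of NK cell-like cells had an interval of 1.10 to 32.8 CPM, which overlapped those of the first 3.

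The IR level of Ifih1 was lower in neutrophil-like (log2 ratio -1.85, -2.24 to -1.45), B cell-like (-2.16, -3.56 to -0.99) and endothelial-like cells (-1.23, -2.40 to -0.23). In macrophage/monocyte-like cells it was lower by less, -0.36 (-0.58 to -0.15), and by -0.83 (-0.95 to -0.70) without the limit of 2500 genes. In fibroblast-like and mural-like cells the intervals included 0 (-0.14 and -0.36), but without that limit the ratios were -1.13 (-1.28 to -0.98) and -1.08 (-1.70 to -0.51). In T cell-like cells the ratio was -0.998 (-2.09 to 0.03), and -1.25 (-2.24 to -0.33) without that limit.

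Within sham, the monocyte-derived set had 119 CPM of Ifih1 against 49.0 CPM in the resident set, a log2 ratio of 1.28 (1.06 to 1.502), and 116 against 65.1 CPM of Ddx58 (0.83, 0.62 to 1.04). Cells were also split by their own UMIs, into 377 sham cells with Mertk and no Ccr2 and 402 with Ccr2 and no Mertk. The cells with neither or both were left out, and the sets rest on RNA, not on sorted protein as in the study. The ratios were then 0.98 (0.63 to 1.33) and 0.37 (0.06 to 0.69). In IR the point estimates were the other way, with 41.9 CPM of Ifih1 in monocyte-derived and 55.8 CPM in resident cells. The interval barely excluded equal levels (-0.41, -0.83 to -0.0041). With the split by Mertk and Ccr2 alone, on 99 and 288 IR cells, the ratio was 0.01 (-0.62 to 0.69), so the IR order did not hold in both splits. With cells above 2500 genes included, the Ifih1 ratio of monocyte-derived to resident cells was 1.02 (0.85 to 1.19) in sham and -0.14 (-0.34 to 0.07) in IR. Between the libraries, the Ifih1 level of resident cells did not differ beyond counting error (log2 ratio 0.19, -0.11 to 0.48), and that of monocyte-derived cells was lower in IR (-1.51, -1.88 to -1.16). With those cells included, the ratios of IR to sham were -0.45 (-0.64 to -0.26) and -1.61 (-1.79 to -1.42), so that resident cells were lower as well.

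**Figure D4:**
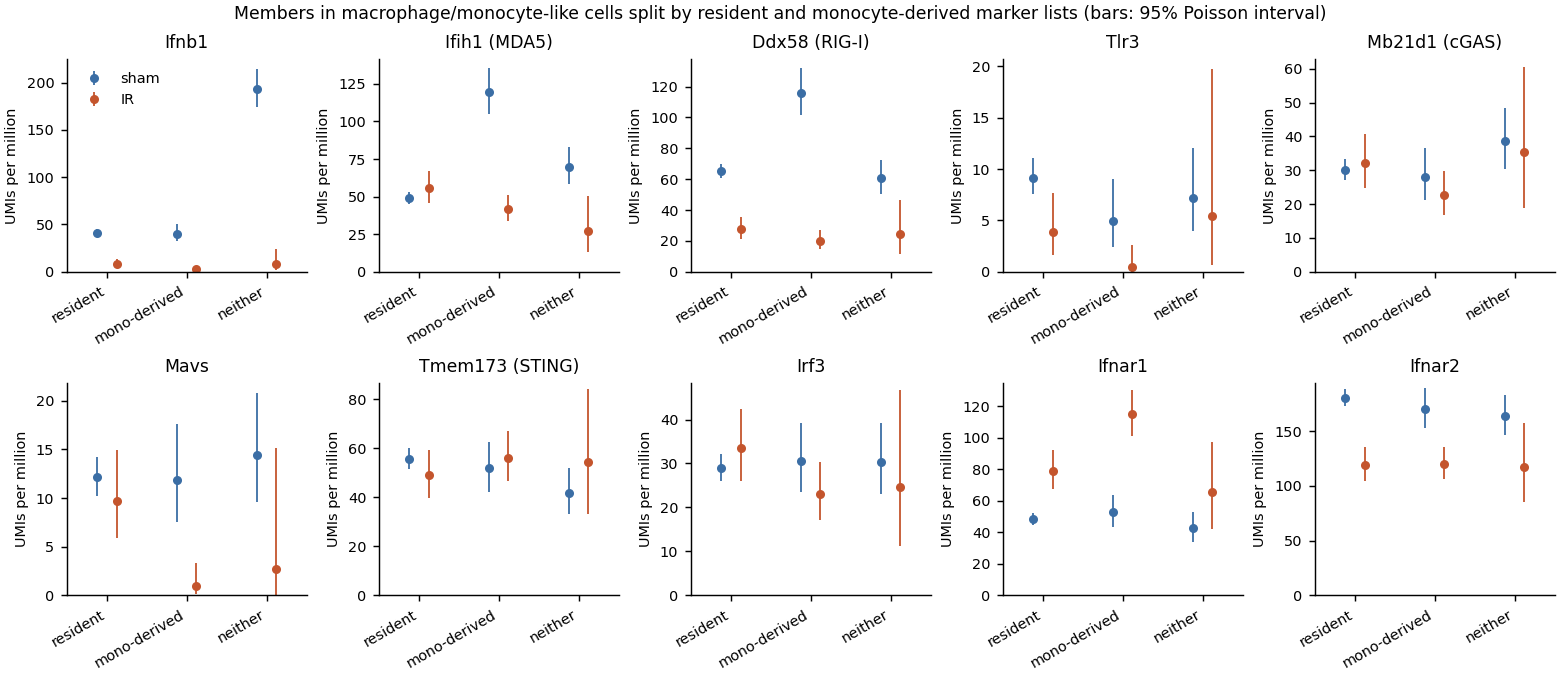
CPM of the 10 members (y axis) in resident, monocyte-derived and remaining macrophage/monocyte-like cells (x axis), sham in blue and IR in orange, with 95% Poisson intervals. Ifih1 and Ddx58 are highest in sham monocyte-derived cells (119 and 116 CPM), Ifnb1 in the sham cells led by neither list (193 CPM), and Ifnar1 in IR monocyte-derived cells (115 CPM).

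Tlr3, the endosomal receptor for double-stranded RNA, was highest in the classes of the vessel wall and stroma. In sham it was 31.6 CPM in endothelial-like (24 UMIs), 16.5 CPM in fibroblast-like (237 UMIs), 10.9 CPM in mural-like (21 UMIs) and 8.39 CPM in macrophage/monocyte-like cells (135 UMIs), and endothelial-like cells exceeded fibroblast-like cells beyond counting error. The 4 other classes had 0 to 4 UMIs each. In IR the values were 30.4, 13.4, 6.21 and 2.39 CPM in the same order, on 6, 12, 3 and 11 UMIs. The ratio was past 2-fold in macrophage/monocyte-like cells (log2 -1.81, -2.85 to -0.93) and in none of the 3 other classes with at least 20 UMIs, where it was -0.30 (-1.28 to 0.53) in fibroblast-like, -0.05 (-1.63 to 1.27) in endothelial-like and -0.82 (-3.21 to 0.93) in mural-like cells. Without the limit of 2500 genes these ratios were -0.91 (-1.17 to -0.66, on 324 and 205 UMIs), -1.08 (-2.14 to -0.13) and -1.24 (-2.80 to 0.06), so that fibroblast-like and endothelial-like cells were lower beyond counting error. After thinning to 1000 UMIs, 1.71% (1.27 to 2.25) of sham fibroblast-like cells kept a Tlr3 UMI (7.36% before thinning), against 0 of 1149 B cell-like cells (0.344% before), at median depths of 4972 and 2205 UMIs.

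Mb21d1 encodes cGAS, which makes the second messenger that activates STING. It was highest in macrophage/monocyte-like cells in both libraries, at 30.9 CPM in sham and 27.8 CPM in IR (log2 ratio -0.15, -0.44 to 0.13, but -0.42 with an interval of -0.58 to -0.26 without the limit of 2500 genes), and in sham this exceeded the 15.0 CPM of neutrophil-like cells beyond counting error. NK cell-like cells had 14.8 CPM, fibroblast-like 10.4 CPM, mural-like 8.34 CPM, endothelial-like 6.58 CPM, B cell-like 5.69 CPM and T cell-like cells 0.807 CPM on 1 UMI. In IR these 7 classes, with neutrophil-like cells, lay between 3.53 CPM (B cell-like) and 13.6 CPM (NK cell-like), with 2 to 12 UMIs in all but neutrophil-like cells. T cell-like cells had 12 UMIs in IR against the 1 in sham, a log2 ratio of 3.47 with an interval of 0.71 to 8.89, but without that limit they had 8 UMIs in sham and 12 in IR, a ratio of 0.47 (-0.94 to 1.97). In B cell-like cells the ratio was -0.69 (-2.01 to 0.51), and -1.14 (-2.30 to -0.11) without the limit.

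Among the adaptors, Mavs was thinly captured, with at most 14.5 CPM in any class. In sham it was 14.5 CPM in endothelial-like, 13.5 CPM in mural-like, 12.4 CPM in macrophage/monocyte-like and 10.7 CPM in fibroblast-like cells, with no difference between neighbours beyond counting error. Neutrophil-like cells had 1 UMI in sham (1.25 CPM) and 5 in IR (0.491 CPM), the latter in a class with 10184099 UMIs in all. The IR level in macrophage/monocyte-like cells was 4.998 CPM (23 UMIs), a log2 ratio of -1.31 (-1.998 to -0.68), which was -0.87 (-1.16 to -0.58) and so under 2-fold without the limit of 2500 genes. Resident cells had 9.70 CPM (20 UMIs) and monocyte-derived cells 0.920 CPM (2 UMIs) in IR, against 12.1 and 11.8 CPM in sham. Without the limit the IR levels were 12.8 CPM (111 UMIs) and 2.97 CPM (44 UMIs), with log2 ratios of 0.05 (-0.30 to 0.39) and -1.74 (-2.38 to -1.09). In IR endothelial-like cells no Mavs UMI was found, where a difference was not detectable at this depth.

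Tmem173 encodes STING, the adaptor on the endoplasmic reticulum that is activated by the product of cGAS. In sham it was 62.1 CPM in NK cell-like (42 UMIs), 53.6 CPM in macrophage/monocyte-like (862 UMIs), 36.4 CPM in B cell-like, 27.6 CPM in endothelial-like, 21.0 CPM in T cell-like, 15.0 CPM in neutrophil-like, 9.90 CPM in mural-like and 7.80 CPM in fibroblast-like cells. In IR it was highest in endothelial-like cells at 106 CPM (21 UMIs) and lowest in neutrophil-like cells at 3.24 CPM (33 UMIs). The leukocytes other than neutrophil-like cells did not differ between the libraries beyond counting error, with log2 ratios of -0.02 (-0.23 to 0.19) in macrophage/monocyte-like, -0.15 in B cell-like, 0.04 in T cell-like and 0.03 in NK cell-like cells. Without the limit of 2500 genes the macrophage/monocyte-like ratio was 0.14 (0.03 to 0.26), with resident cells lower in IR (-0.34, -0.52 to -0.16) and monocyte-derived cells higher (0.42, 0.20 to 0.64). Non-leukocytes had more in IR, with log2 ratios of 1.95 (1.001 to 2.89) in endothelial-like, 1.65 (0.57 to 2.70) in mural-like and 1.0 (0.08 to 1.81) in fibroblast-like cells. Without that limit these were 1.60 (1.04 to 2.18), 1.09 (0.27 to 1.92) and 1.07 (0.84 to 1.31), and the fibroblast-like value then rested on 211 and 529 UMIs. Neutrophil-like cells had less in IR (-2.21, -3.20 to -1.12), on 12 and 33 UMIs, and -0.83 (-1.43 to -0.18) without that limit.

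Irf3 encodes the factor on which these routes converge, which is regulated by phosphorylation. Its transcript was found in every class, from 26.2 CPM in neutrophil-like to 55.8 CPM in mural-like cells in sham, and from 17.4 CPM in neutrophil-like to 81.6 CPM in NK cell-like cells (18 UMIs) in IR. Macrophage/monocyte-like cells had 29.3 CPM in sham and 27.8 CPM in IR (log2 ratio -0.08, -0.37 to 0.21). Of the 8 classes, the ratio was past 2-fold in NK cell-like cells alone (1.33, 0.34 to 2.29). In fibroblast-like cells it was 0.78 (0.36 to 1.18), but 0.08 (-0.06 to 0.22) without the limit of 2500 genes. In B cell-like cells it was 0.43 (0.10 to 0.76), and 0.32 (0.03 to 0.60) without that limit. T cell-like, neutrophil-like, endothelial-like and mural-like cells did not differ between the libraries beyond counting error.

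The receptor chains went apart in macrophage/monocyte-like cells, with more Ifnar1 and less Ifnar2 in the IR library. Ifnar1 was 48.3 CPM in sham and 94.97 CPM in IR in these cells, a log2 ratio of 0.98 (0.80 to 1.15) on 777 and 437 UMIs. It was also higher in IR in neutrophil-like (37.4 and 84.8 CPM, 1.18, 0.66 to 1.76), NK cell-like (65.1 and 141 CPM, 1.11, 0.40 to 1.81), T cell-like (54.1 and 92.5 CPM, 0.77, 0.33 to 1.22), fibroblast-like (27.1 and 47.9 CPM, 0.82, 0.33 to 1.28) and B cell-like cells (67.4 and 91.6 CPM, 0.44, 0.18 to 0.71). In endothelial-like (32.9 and 40.5 CPM) and mural-like cells (16.2 and 18.6 CPM) the intervals of the ratio included 0. Without the limit of 2500 genes the fibroblast-like ratio was 0.32 (0.17 to 0.47). In sham no neighbours in the order differed beyond counting error except fibroblast-like and mural-like cells, and in IR except neutrophil-like and fibroblast-like cells. Classes further apart in the sham order did differ. The intervals of B cell-like (59.1 to 76.6 CPM), macrophage/monocyte-like (44.97 to 51.8 CPM) and fibroblast-like cells (24.45 to 29.9 CPM) did not overlap. The IR order thus had all 5 leukocyte classes, at 84.8 to 141 CPM, above the 3 other classes, at 18.6 to 47.9 CPM.

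Ifnar2, the second receptor chain, was 177 CPM in sham and 120 CPM in IR macrophage/monocyte-like cells, a log2 ratio of -0.57 (-0.70 to -0.44) on 2853 and 550 UMIs. Split by the marker lists, the ratio was -0.60 (-0.79 to -0.41) in resident and -0.50 (-0.74 to -0.27) in monocyte-derived cells. In fibroblast-like cells it was 125 and 91.3 CPM (-0.45, -0.79 to -0.13), and in mural-like cells 79.2 and 126 CPM (0.67, 0.22 to 1.11, but 0.19 with an interval of -0.17 to 0.55 without the limit of 2500 genes). Endothelial-like cells had 106 and 147 CPM, neutrophil-like 93.6 and 91.7 CPM, NK cell-like 56.2 and 68.0 CPM, T cell-like 41.2 and 37.3 CPM and B cell-like 32.2 and 33.7 CPM, with intervals of the ratio that included 0. Lymphocyte classes were the lowest for Ifnar2 in both libraries, whereas for Ifnar1 they were the highest in sham.

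**Figure D5:**
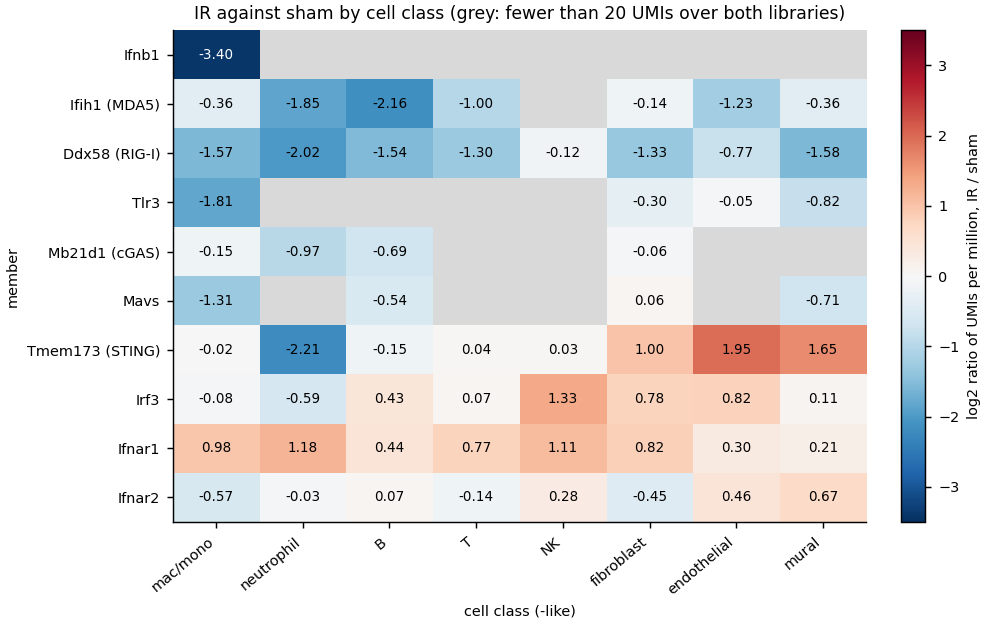
Log2 ratio of IR to sham CPM for each member (rows) in each of 8 cell classes (columns), red where IR is higher and blue where it is lower, and grey where both libraries together held fewer than 20 UMIs. The Ddx58 row is blue throughout, the Ifnar1 row red throughout, and Tmem173 runs from -2.21 in neutrophil-like to 1.95 in endothelial-like cells.

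Counted over the members with at least 20 UMIs, a difference of at least 2-fold was seen as follows, beside the share of all genes of the same class past the same limit. In macrophage/monocyte-like cells 0 of 10 members were higher in IR (all genes, 9.21%) and 4, Ifnb1, Ddx58, Mavs and Tlr3, were lower (12.6%). In neutrophil-like cells 1 of 7, Ifnar1, was higher (9.97%) and 3, Ifih1, Ddx58 and Tmem173, were lower (33.0%). In B cell-like cells 0 of 8 were higher (5.02%) and 2, Ifih1 and Ddx58, were lower (5.64%). In T cell-like cells 0 of 6 were higher (6.02%) and 1, Ddx58, was lower (3.93%), and in NK cell-like cells 2 of 5, Ifnar1 and Irf3, were higher (14.1%) and 0 were lower (8.45%). In fibroblast-like cells 1 of 9, Tmem173, was higher (13.3%) and 1, Ddx58, was lower (19.6%). In endothelial-like cells 1 of 7, Tmem173, was higher (9.64%) and 1, Ifih1, was lower (13.3%), and in mural-like cells 1 of 8, Tmem173, was higher (7.52%) and 1, Ddx58, was lower (10.8%). The median log2 ratio of all genes was -0.56 in neutrophil-like cells and between -0.12 and 0.18 in the other classes, and relative to it the neutrophil-like ratios of Ifih1 and Ddx58 were -1.29 and -1.46. When the limit of 2500 genes was dropped, Mavs in macrophage/monocyte-like and Tmem173 in neutrophil-like cells were no longer past 2-fold, and among the same ratios Ifih1 in T cell-like, fibroblast-like and mural-like cells, Mb21d1 in B cell-like cells and Tlr3 in endothelial-like and mural-like cells were lower by at least 2-fold as well.

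Of 53 further genes of the pathway, 35 had at least 20 UMIs in macrophage/monocyte-like cells, 3 of them at least 2-fold higher in IR and 9 lower, with a median log2 ratio of -0.12 against -0.02 over all genes, beside the 9.21% and 12.6% of all genes given above. The 3 higher genes were Ikbke, a kinase that phosphorylates IRF3 (1.49 and 17.8 CPM, log2 ratio 3.58, 2.91 to 4.30, and 2.71 without the limit of 2500 genes), Nfkb1, an NF-kappaB subunit (100 and 300 CPM, 1.58, 1.48 to 1.69), and Tlr4, the receptor for endotoxin (19.1 and 44.8 CPM, 1.23, 0.97 to 1.49). Among the lowest ratios were those of Irf7, which amplifies interferon production (411 and 42.8 CPM, -3.26, -3.47 to -3.06), and Usp18, which dampens the receptor signal (86.9 and 19.1 CPM, -2.18, -2.51 to -1.87). The kinase Tbk1 was 24.2 and 33.9 CPM (0.48, 0.21 to 0.76), and the receptor kinases Jak1 and Tyk2 differed by 0.17 and -0.14. Other type I interferon genes were hardly captured, with 9 UMIs of Ifna2 and 1 each of Ifna1 and Ifna16 in sham macrophage/monocyte-like cells, all of them in the 166 cells with an Ifnb1 UMI, and 1 UMI of Ifnk in IR. Irf7 was lower in IR in every class, with log2 ratios from -4.001 in neutrophil-like to -2.26 in T cell-like cells.

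Of 10 interferon-stimulated genes, 7 were at least 2-fold lower in IR in macrophage/monocyte-like cells and 0 were higher, against 12.6% and 9.21% of all genes of the class, with a median log2 ratio of -2.15 against -0.02 over all genes. With cells above 2500 genes included, 9 were lower and 0 higher, against 17.7% and 8.03% of all genes, with a median of -2.64 against -0.15. Isg15 was lower in every class, by -4.78 in B cell-like to -1.97 in fibroblast-like cells on the log2 scale, while Cxcl10 was 478 and 753 CPM in macrophage/monocyte-like cells (0.66, 0.60 to 0.72, and 0.17 with an interval of 0.13 to 0.21 without the limit of 2500 genes).

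Across the 17 sums of a class in a library with at least 50 cells, the genes with the pattern most like Ifnb1 by Pearson's r of log2(CPM + 10) were Vsig4 (0.98), Pla2g2d (0.98), Timd4 (0.98), Siglec1 (0.96) and Gpr34 (0.96), among 10729 genes with at least 200 UMIs. For Ifih1 they were Ifitm3 (0.91), Acvrl1 (0.90), Cyb5r1 (0.90), Parp12 (0.89) and Dusp6 (0.89). The 17 points share 2 libraries and their depth, and the values describe likeness over these classes only. Ifnb1 was 59.5 CPM in sham and 5.65 CPM in IR macrophage/monocyte-like cells and at most 1.49 CPM elsewhere. Its r thus rests mainly on 1 sum and picks genes high in sham macrophage/monocyte-like cells. Within that class Timd4 was lower in cells with an Ifnb1 UMI, at 30.1 against 70.8 CPM (log2 ratio -1.23, -1.84 to -0.68). The other genes named for Ifnb1 were not compared in this way.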

How the data were processed

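Single-cell libraries of left ventricular cells were made by the study with the 10x Chromium 3′ chemistry. The authors deposited whole-number UMI counts per gene and barcode, not normalized, as 1 matrix for each condition. The matrix headers name Cell Ranger 3.1.0, and the submitters' processing notes give the genome build mm10.

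From these counts, cells with 200 to 2500 genes and at most 30% mitochondrial UMIs were kept, the limits that the study states, and no doublet caller was run. A cell's score for a class was the mean over its markers of log2(1 + counts per 10000). The highest class was assigned with at least 3 markers detected and a lead of 0.2, and 347 sham and 262 IR cells stayed unassigned. This scoring rule was chosen after the data had been seen, and the members and gene lists were chosen with earlier results of these data known. Of the markers, 1 was not listed in the matrices.

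UMIs were summed per class and library, with exact Poisson intervals for levels, exact conditional binomial intervals for ratios and Clopper-Pearson intervals for shares, all at 95% and for counting error only. For a bound on a ratio, a count of 0 was taken to allow up to 3 counts. Ratios were counted with at least 20 UMIs over both libraries. Shares were thinned to 1000 UMIs per cell. All 10 members were followed in all 8 classes, with some values given in the figures only. From the pathway list, the 3 highest and 3 lowest ratios in macrophage/monocyte-like cells were to be named, of which 1 of the lowest is not reported here. Class assignment was run on simulated cells drawn from the summed profiles of the assigned classes, and ratios on simulated Poisson counts. Neither setting added doublets, free RNA or UMIs concentrated in few cells, so the runs give no check against these. Python 3.11.15, numpy 2.4.6, scipy 1.17.1, pandas 2.3.3 and matplotlib 3.10.9 were used. Alternatives comprised the gene and mitochondrial limits, the scaling, the marker rule, the fold, the UMI minimum, the thinning depth and the macrophage split.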

Additional observations from a re-analysis of the deposited data

Results flagged for a closer look

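Tmem173, which encodes STING, differed in direction between classes in the comparison of IR with sham. Its log2 ratio was 1.0 in fibroblast-like, 1.95 in endothelial-like and 1.65 in mural-like cells, and -2.21 in neutrophil-like cells. The difference between classes was not tested, since each condition was 1 library. Without the limit of 2500 genes the values were 1.07, 1.60, 1.09 and -0.83, in the same order. Red cell RNA, at 2962 CPM in sham and 162 CPM in IR endothelial-like cells, moved with the comparison. With totals that left out mitochondrial, hemoglobin and S100a8/S100a9 UMIs, all 60 ratios counted stayed within their interval. Any other part of red cell RNA in the result was not tested.

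Ifnb1 was also found in barcodes above the limit of 2500 genes that were assigned to classes other than macrophage/monocyte-like cells. In sham, 39 UMIs lay in 6 of 687 fibroblast-like barcodes above the limit, 25 of them in 1 barcode, and 9 UMIs in 4 of 151 B cell-like barcodes. In IR, 18 UMIs lay in 5 of 254 neutrophil-like barcodes. The fibroblast-like barcodes with Ifnb1 carried a median of 9 of the 11 macrophage/monocyte markers, against 1 in those without, the B cell-like ones 4.5 against 2, and the neutrophil-like ones 9 against 6.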

How the results depend on the processing

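No paired analysis was possible because the 4 samples of each condition are merged in 1 matrix without a map of cells to samples, and for the same reason no sample could be left out in turn. The 60 ratios of IR to sham with at least 20 UMIs in a class were recomputed under each alternative. None whose main value was past 2-fold changed sign. Without the limit of 2500 genes, 52 of the 60 stayed within their counting interval, and in macrophage/monocyte-like cells the log2 ratio of Ifih1 moved to -0.83 and that of Ddx58 to -1.90. With at most 10% mitochondrial UMIs 58 stayed within it, relative to the median of all genes 57, and with the stricter marker rule, the mean over cells or the total without mitochondrial, hemoglobin and S100a8/S100a9 UMIs all 60. The number of members at least 2-fold higher in IR macrophage/monocyte-like cells, 0, became 1 (Ifnar1) with that total and also 1 with a fold of 1.5. Leaving out the 10 cells with most Ifnb1 UMIs in each library, chosen after the data had been seen, gave a log2 ratio of -4.51 for Ifnb1, since the 18 IR cells then lost most of their UMIs. Thinned to 2000 UMIs, the share of sham macrophage/monocyte-like cells with an Ifnb1 UMI was 3.58%, as more UMIs per cell were kept. Of the ratios of monocyte-derived to resident cells with at least 20 UMIs, the split by Mertk and Ccr2 alone moved 5 beyond their interval, and none past 2-fold changed sign, while Tlr3 in IR, on 9 UMIs, went from -3.08 to 0.05. Members with few UMIs, such as Mavs and Tlr3 in lymphocytes and all members in IR endothelial-like and NK cell-like cells, were limited by depth.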
